A study of Mus with 6 samples.

Results

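Immediate early genes are the first transcripts to appear after a cell receives a signal. Their promoters are switched on within minutes by pre-existing factors, chiefly serum response factor with its ERK-activated partners and CREB, without new protein synthesis. They encode transcription factors such as the AP-1 proteins, and also phosphatases and RNA-binding proteins that shut the response down again. Growth factors, stress and injury all induce them. The 10 genes described here were chosen by name as a panel of this response: Fos, Fosb, Jun, Junb, Egr1, Atf3, Ier2, Dusp1, Zfp36 and Nr4a1. All 10 were found by Ensembl ID among the 15646 genes of the count table, and all 10 were among the 14348 genes tested.

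The samples were bulk total RNA from tumors of KPC1199, a mouse pancreatic ductal adenocarcinoma line of the KPC type, grown in the pancreas of the host. The obese group was 3 libraries (obese 1, 3 and 4) from ob/ob mice, which lack functional leptin. The lean group was 3 libraries (lean 1, 2 and 3) from wild-type (WT) mice. All hosts thus carried the same tumor line, and the labels give neither the age nor the sex of the mice. No label says whether each library came from a separate mouse, and the p-values therefore reflect the variation among these libraries, some of which may be technical. The comparison is of gene expression in tumors of ob/ob and WT hosts. In it, obesity and the lack of leptin go together and cannot be told apart. The obese libraries held 7791756 to 8419274 counts and the lean libraries 7122533 to 8521244. The markers of tumor, stromal and immune cells could not be looked up, because the files and the gene table used here do not pair Ensembl IDs with symbols; the labelled tissue was therefore not checked.

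All 10 genes had a lower fitted level in tumors of obese mice, as did 49.1% of all genes tested, and 6 of them passed the test: Fos, Jun, Egr1, Dusp1, Zfp36 and Nr4a1 (edgeR quasi-likelihood test; the threshold was 0.05 for p adjusted by Benjamini-Hochberg across the tested genes). Of all genes tested, 20.8% were called, 10.6% as lower in obese hosts. The median log2 fold change of the 10 genes was -1.59, against 0.01 over all genes tested. In 4 of the 10 genes, Jun, Dusp1, Zfp36 and Nr4a1, every obese library lay below every lean library, a pattern seen in 20.0% of all genes tested. In bulk tissue, fewer cells of a type and less RNA per cell cannot be told apart, and this holds for every difference below.

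A single library, lean 3, had the highest level of each of the 10 genes. Relative to the mean of lean 1 and lean 2, it stood between 1.83-fold (Junb) and 9.87-fold (Fosb) higher, with a median of 2.50-fold over the panel and of 0.999-fold over all genes tested. In 9 of the 10 genes it was at least 1.5-fold above the highest of the other 5 libraries, which was so for 114 of all genes tested (0.795%). At least 2-fold was reached by Fos, Fosb, Egr1, Atf3 and Zfp36, which made up 5 of only 18 such genes in the table (0.125%). Over all genes lean 3 did not stand apart in this way, since the other 5 libraries each had 90 to 226 genes at least 1.5-fold above all others. What raised the panel in lean 3 was not tested, and the fold changes below are given with and without this library. Without it, 3 of the 10 genes were called (Jun, Zfp36 and Nr4a1), all lower in obese hosts, against 10.4% of all genes in either direction and 5.14% as lower, and the median log2 fold change of the panel was -0.86. Leaving out lean 3, the highest library of every panel gene, could hardly bring separate groups together. That Jun, Dusp1, Zfp36 and Nr4a1 still did not overlap therefore adds nothing. Without lean 3, obese lay below lean in 23.8% of all genes. Jun, Zfp36 and Nr4a1 were also the genes called without obese 1 (9.92% of all genes). With robust dispersion estimates Jun and Zfp36 were called (21.0% of all genes).

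**Figure D1:**
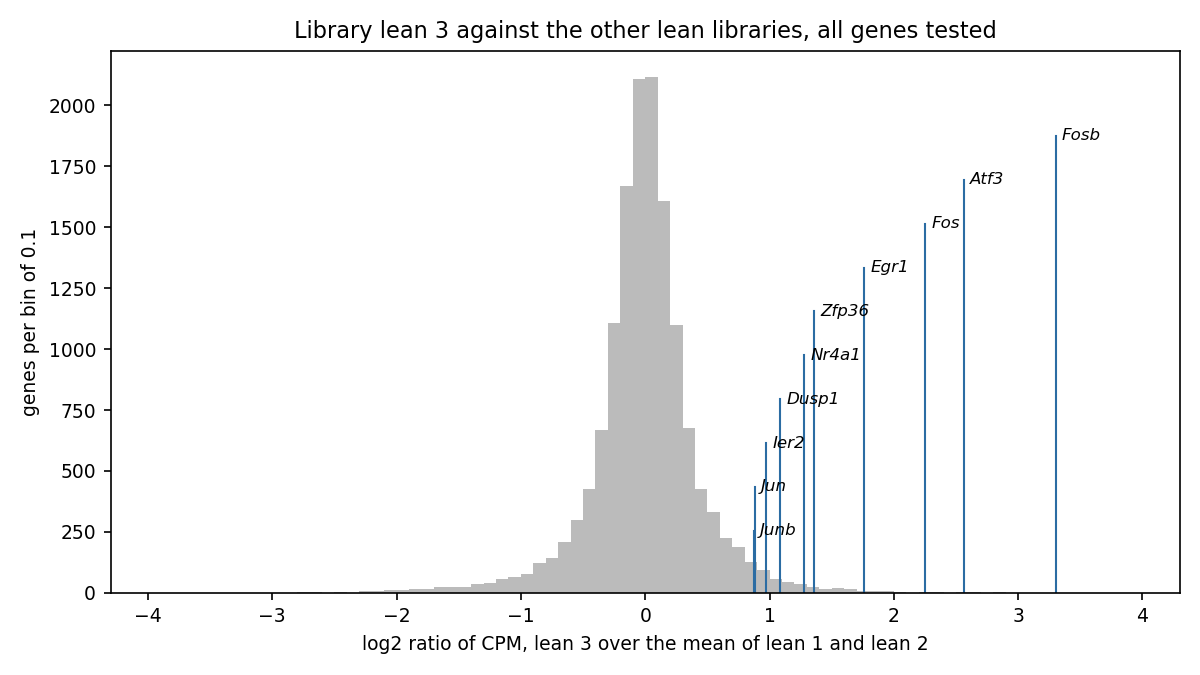
Number of genes (vertical axis, bins of 0.1) by the log2 ratio of CPM in lean 3 over the mean of lean 1 and lean 2 (horizontal axis), for all genes tested with reads in lean 3 and in lean 1 or lean 2; blue lines of arbitrary height mark the 10 immediate early genes. All 10 lie on the right side of the distribution, from 1.83-fold for Junb to 9.87-fold for Fosb.

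Levels are given as CPM, that is, counts relative to library size after scaling by TMM factors, and are compared between libraries of a gene, not between genes, because transcript length was not corrected for. The genes held between 48 counts (Fosb in obese 3) and 4164 counts (Junb in lean 3) per library, so that counting alone gives a coefficient of variation of 14.4% to 1.55%.

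**Figure D2:**
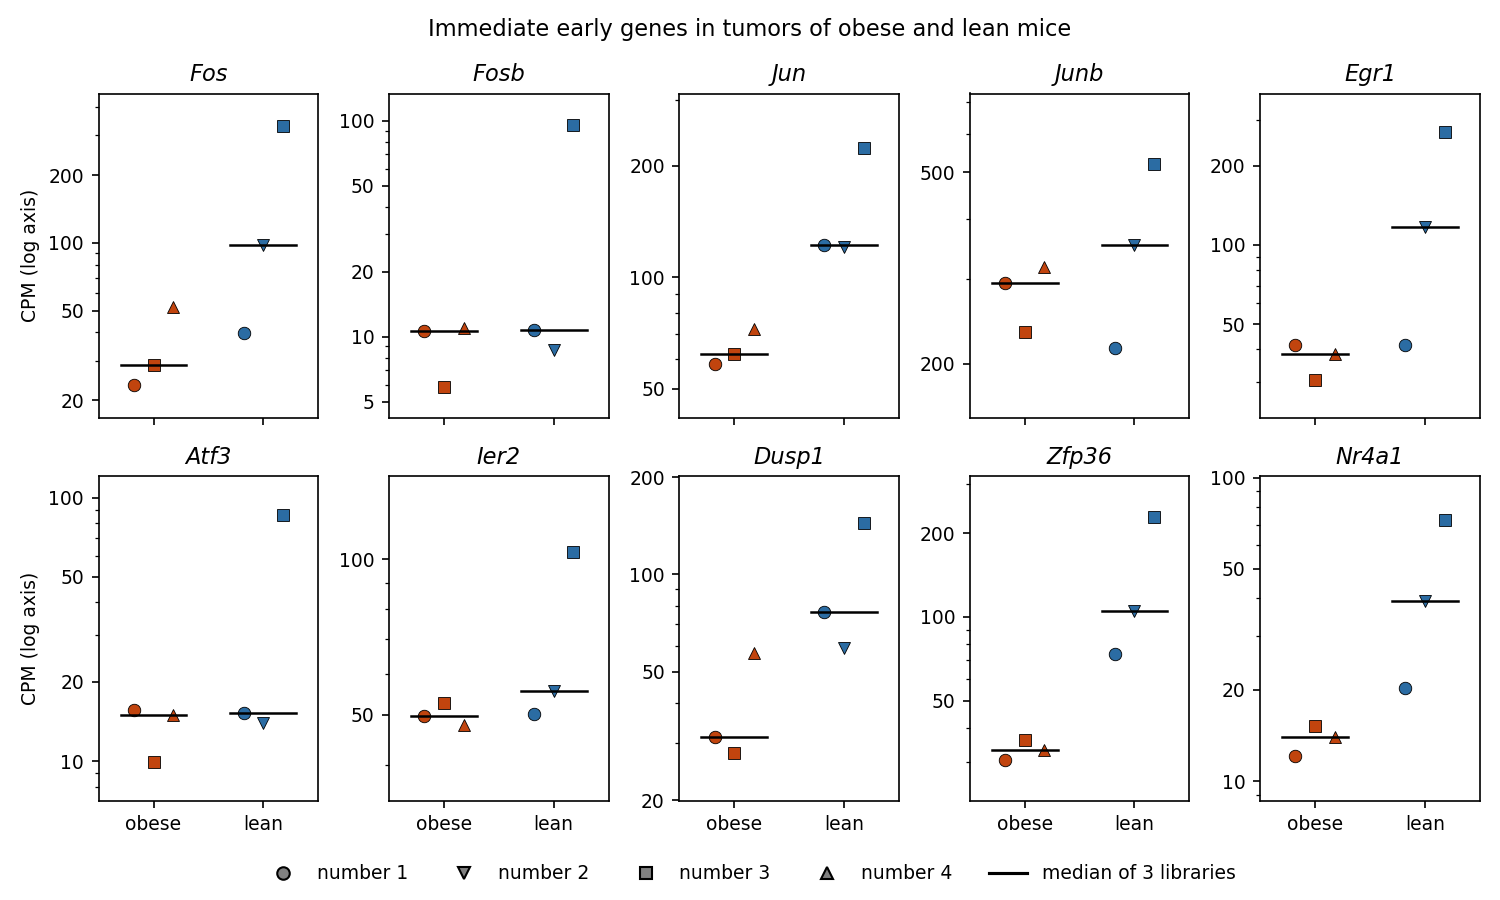
CPM of each gene in each library on a log axis whose range differs between panels, obese on the left and lean on the right; symbols mark the number in the sample title and bars the median of 3 libraries. Lean 3 (square) is the highest point in every panel, and Jun, Dusp1, Zfp36 and Nr4a1 show no overlap between the groups.

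AP-1 is a pair of leucine zipper proteins, in which a Fos protein binds DNA as the partner of a Jun protein. Fos (ENSMUSG00000021250.13, GRCm38 chr12:85473890-85477274) had 23.3, 28.6 and 51.6 CPM in obese 1, 3 and 4, against 39.6, 98.3 and 329 CPM in lean 1, 2 and 3. Obese 4 lay above lean 1, so the groups overlapped. The means were 34.5 ± 15.1 CPM in obese and 156 ± 153 CPM in lean tumors (SD, n = 3 each), or a log2 fold change of -2.17 (SE 0.60, edgeR adjusted p = 0.0289). Without lean 3 the log2 fold change was -0.99 with an SE of 0.39 and the call was lost (edgeR adjusted p = 0.124). The Fos call also failed without obese 1, obese 3 or lean 2 (edgeR adjusted p = 0.0948, 0.0507 and 0.0587), in DESeq2 (adjusted p = 0.0638), in limma-voom without and with sample weights (adjusted p = 0.0830 and 0.0502) and with robust dispersion estimates (edgeR adjusted p = 0.187). It thus held in 7 of the 15 alternatives. Within the lean group Fos spanned 8.30-fold with lean 3 and 2.48-fold without it. Its biological coefficient of variation was 47.8% with lean 3 and 30.4% without, against 12.7% for genes of like abundance in the fit of all 6 libraries.

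Fosb (ENSMUSG00000003545.3, chr7:19302696-19310118), the close relative of Fos that is usually low at rest, had 10.7, 5.87 and 11.0 CPM in obese 1, 3 and 4, against 10.7, 8.66 and 95.5 CPM in lean 1, 2 and 3. Lean 1 and lean 2 lay within the range of the obese libraries, and only lean 3 stood above it. Its log2 fold change of -2.06 had an SE of 0.76 and did not pass the test (edgeR adjusted p = 0.0768, 95% interval -3.74 to -0.38 before adjustment). Without lean 3 it was -0.08, with an interval of -0.77 to 0.62, and without lean 1 Fosb was called (log2 fold change -2.51, edgeR adjusted p = 0.0378). The SD of its log2 CPM was 0.49 among obese and 1.90 among lean tumors, and 0.21 over lean 1 and lean 2 alone.

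The Jun family provides the other side of AP-1, and Jun can also bind DNA as a pair with itself. Jun (ENSMUSG00000052684.4, chr4:95049036-95052222) had 58.3, 62.0 and 72.5 CPM in obese 1, 3 and 4, against 122, 120.4 and 224 CPM in lean 1, 2 and 3. All obese libraries lay below all lean ones, and lean 1 and lean 2 differed by only 1.02-fold. Jun fell by 1.27 on the log2 scale, a 2.42-fold lower level in obese hosts with an SE of 0.22 (edgeR adjusted p = 0.00444). Without lean 3 the level was still 1.89-fold lower (log2 fold change -0.92, SE 0.13, edgeR adjusted p = 0.00851). The call for Jun held in all 15 alternatives run.

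Junb (ENSMUSG00000052837.7, chr8:84976909-84978748), which pairs with Fos proteins as Jun does but is a weaker activator, behaved differently. It had 295, 233 and 317 CPM in obese 1, 3 and 4, against 216, 354 and 521 CPM in lean 1, 2 and 3. Its lowest value was in a lean library, lean 1, and its groups overlapped. The means of 282 ± 43.9 CPM in obese and 364 ± 153 CPM in lean tumors (SD, n = 3 each) gave a log2 fold change of -0.37 that did not pass the test (95% interval -0.92 to 0.18, edgeR adjusted p = 0.312). Without lean 3 it was -0.02 (interval -0.48 to 0.44). Without lean 1, in contrast, Junb was called (log2 fold change -0.64, edgeR adjusted p = 0.0375).

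Egr1 and Atf3 encode transcription factors outside the Fos and Jun families. Egr1 (ENSMUSG00000038418.7, chr18:34861207-34864956), a zinc finger factor and a classic target of ERK and serum response factor, had 41.7, 30.7 and 38.5 CPM in obese 1, 3 and 4, against 41.7, 117 and 269 CPM in lean 1, 2 and 3. Lean 1 was level with obese 1, and lean 2 and lean 3 stood above every obese tumor. Egr1 averaged 37.0 ± 5.67 CPM in obese and 143 ± 116 CPM in lean tumors (SD, n = 3 each), with a log2 fold change of -1.95, an SE of 0.49 and an edgeR adjusted p = 0.0200. Without lean 3 the log2 fold change was -1.10 (SE 0.34) and the call was lost (edgeR adjusted p = 0.0700), as it was without obese 1 (edgeR adjusted p = 0.0523), without lean 2 (edgeR adjusted p = 0.0559), in limma-voom (adjusted p = 0.0650) and with robust dispersion estimates (edgeR adjusted p = 0.146). The Egr1 call held in 10 of the 15 alternatives.

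Atf3 (ENSMUSG00000026628.13, chr1:191170296-191183333), a stress-induced factor of the ATF/CREB family that can pair with Jun, had 15.6, 9.91 and 15.0 CPM in obese 1, 3 and 4, against 15.2, 13.9 and 86.2 CPM in lean 1, 2 and 3. As for Fosb, lean 1 and lean 2 lay within the range of the obese libraries and lean 3 far above it. Atf3 did not pass the test (log2 fold change -1.51, SE 0.59, 95% interval -2.81 to -0.21 before adjustment, edgeR adjusted p = 0.0913), and without lean 3 its log2 fold change was -0.11 (interval -0.66 to 0.44). Without lean 1, Atf3 was called (log2 fold change -1.90, edgeR adjusted p = 0.0429).

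Nr4a1 (ENSMUSG00000023034.7, chr15:101253902-101274795), an orphan nuclear receptor induced by growth factors and by receptor signaling in lymphocytes, had 12.1, 15.2 and 14.0 CPM in obese 1, 3 and 4, against 20.3, 39.2 and 72.2 CPM in lean 1, 2 and 3. No obese library reached the lowest lean one, while the lean libraries themselves spanned 3.56-fold. Nr4a1 was 3.19-fold lower in obese hosts (log2 fold change -1.67, SE 0.36, edgeR adjusted p = 0.0111). It was 2.16-fold lower without lean 3 (log2 fold change -1.11, SE 0.27, edgeR adjusted p = 0.0344). Of the 15 alternatives, 14 kept the call, the exception being robust dispersion estimates (edgeR adjusted p = 0.0544).

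Dusp1 and Zfp36 act as brakes on the response. Zfp36 (ENSMUSG00000044786.6, chr7:28376784-28379228) encodes tristetraprolin, which binds AU-rich elements in short-lived mRNAs and speeds their decay. It had 30.6, 36.1 and 33.3 CPM in obese 1, 3 and 4, against 73.5, 105 and 229 CPM in lean 1, 2 and 3. The obese libraries were tightly grouped, within 1.18-fold of each other, and the lowest lean library lay well above them. Zfp36 averaged 33.3 ± 2.75 CPM in obese and 136 ± 82.2 CPM in lean tumors (SD, n = 3 each), 4.08-fold lower in obese hosts (log2 fold change -2.03, SE 0.33, edgeR adjusted p = 0.00393). Without lean 3 it was 2.68-fold lower (log2 fold change -1.42, SE 0.17, edgeR adjusted p = 0.00685), and the call held in all 15 alternatives. Zfp36 had the smallest adjusted p of the 10 genes, both with and without lean 3.

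Dusp1 (ENSMUSG00000024190.7, chr17:26505591-26508472), a phosphatase that inactivates MAP kinases in the nucleus, had 31.4, 27.9 and 57.0 CPM in obese 1, 3 and 4, against 76.3, 59.1 and 144 CPM in lean 1, 2 and 3. Obese 4 came close to lean 2, although the groups did not overlap. The log2 fold change was -1.26 (SE 0.33, edgeR adjusted p = 0.0223). It was -0.81 without lean 3, where the call was lost (SE 0.27, edgeR adjusted p = 0.0866). Dusp1 was also short of the threshold without obese 1 (edgeR adjusted p = 0.0781), in DESeq2 (adjusted p = 0.0513) and with robust dispersion estimates (edgeR adjusted p = 0.116). Of the 15 alternatives, 11 kept the call.

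Ier2 (ENSMUSG00000053560.5, chr8:84661331-84662852), a small nuclear protein with a role in transcription, had 49.8, 52.7 and 47.8 CPM in obese 1, 3 and 4, against 50.1, 55.5 and 103 CPM in lean 1, 2 and 3. Lean 1 lay within the range of the obese libraries, and lean 2 was just above it. Ier2 did not pass the test (log2 fold change -0.48, 95% interval -0.98 to 0.03, edgeR adjusted p = 0.161), nor in any of the 15 alternatives. Without lean 3 its log2 fold change was -0.08 with an interval of -0.37 to 0.22.

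**Figure D3:**
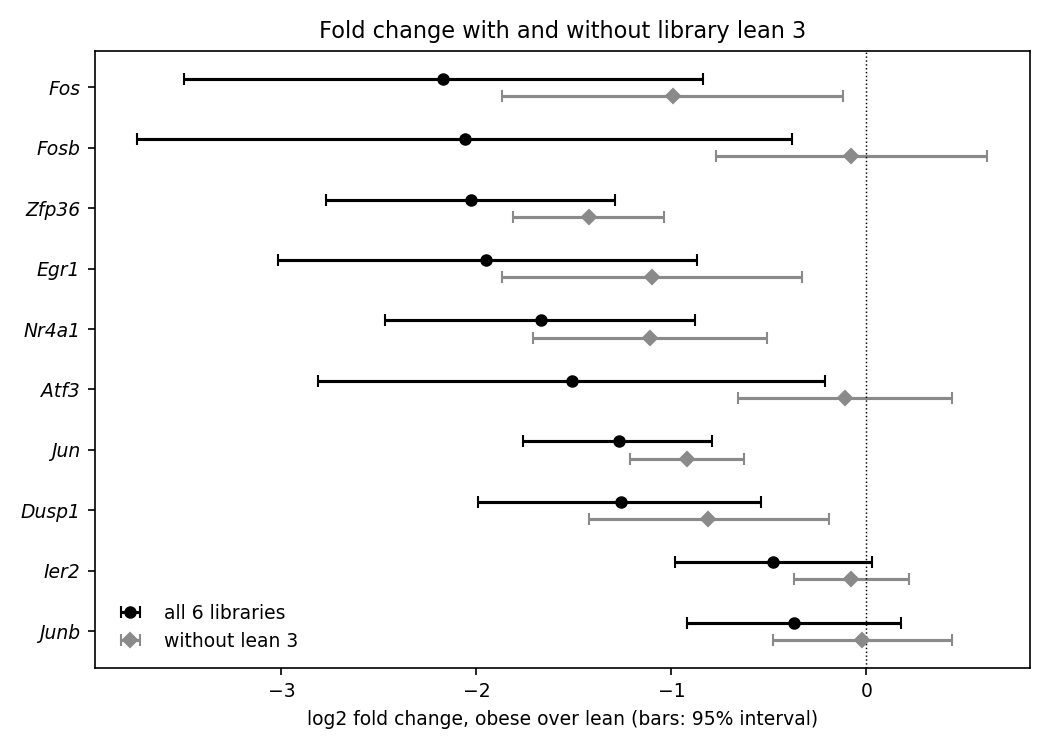
Log2 fold change of each gene, obese over lean, with its 95% interval before adjustment, from the edgeR fit with all 6 libraries (black circles) and without lean 3 (grey diamonds); the dotted line marks no difference. Without lean 3, Fosb, Atf3, Ier2 and Junb lie between -0.11 and -0.02, whereas Jun, Zfp36, Nr4a1, Egr1, Fos and Dusp1 lie between -1.42 and -0.81.

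With lean 3 set aside, the panel thus showed 2 patterns, a grouping made after the values were seen and so not tested. In Fosb, Atf3, Ier2 and Junb the mean of lean 1 and lean 2 was close to that of the obese tumors: 9.17 CPM in obese against 9.67 CPM in these lean tumors for Fosb, 13.5 against 14.6 CPM for Atf3, 50.1 against 52.8 CPM for Ier2, and 282 against 285 CPM for Junb. In the other 6 genes the mean of the obese tumors remained lower, but Fos and Egr1 overlapped between the groups. Obese 4 lay above lean 1 for Fos (51.6 against 39.6 CPM), and obese 1 was level with lean 1 for Egr1 (41.7 CPM each). For both genes, only lean 2 of these lean libraries stood above every obese one. The corresponding means were 33.3 CPM in obese against 89.4 CPM in lean 1 and lean 2 for Zfp36, 13.7 against 29.7 CPM for Nr4a1, and 64.3 against 121 CPM for Jun. Fos, at 34.5 against 69.0 CPM, Egr1, at 37.0 against 79.4 CPM, and Dusp1, at 38.8 against 67.7 CPM, did not pass the test in this smaller comparison.

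The spread between libraries also differed by gene and group. The SD of log2 CPM was larger among lean than among obese tumors in 10 of 10 genes, with medians over the panel of 0.23 in obese and 0.87 in lean tumors. Over all genes tested these medians were 0.20 and 0.19, and 49.6% of genes had the larger SD among lean tumors. Without lean 3 the difference was smaller, and these values cannot tell whether any was left. The lean SD then comes from fewer libraries than the obese SD, so the comparison is uneven. Over lean 1 and lean 2 alone the lean SD was the larger in 6 of 10 genes and the smaller in Fosb, Jun, Atf3 and Dusp1, with a panel median of 0.31; over all genes tested this median was 0.16, and 43.4% of genes had the larger SD in these lean tumors. Ier2, Zfp36, Jun and Nr4a1 were the most even among obese tumors, with SDs of 0.07 to 0.16. Fos and Dusp1 were the least even, with SDs of 0.59 and 0.55, because obese 4 stood above obese 1 and obese 3 in both. Lean 1 and lean 2 did not keep a common order either. Lean 2 was the higher for Fos, Egr1, Nr4a1, Junb, Zfp36 and Ier2, by 2.81-fold at most (Egr1), and lean 1 was the higher for Jun, Fosb, Atf3 and Dusp1, by 1.29-fold at most (Dusp1). Averaged over the 10 genes, the deviation from each gene's mean log2 CPM was -0.64, -0.78 and -0.38 in obese 1, 3 and 4, against -0.17, 0.26 and 1.71 in lean 1, 2 and 3. Together the 10 genes took 0.0576%, 0.0526% and 0.0657% of all counts in obese 1, 3 and 4, against 0.0658%, 0.0960% and 0.199% in lean 1, 2 and 3; Junb was the largest contributor to the count in each library.

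**Figure D4:**
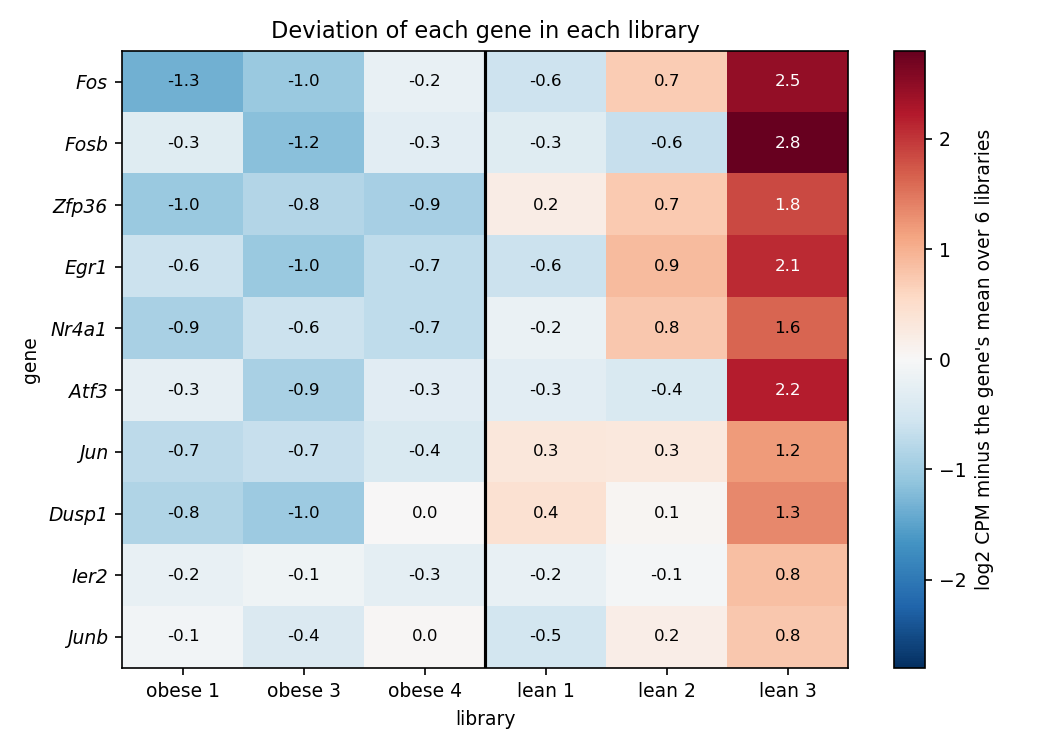
Log2 CPM of each gene (rows, ordered by fold change) in each library (columns, obese to the left of the line and lean to the right), minus the gene's own mean over the 6 libraries. Lean 3 is positive in all 10 rows. Lean 1 lies within the range of the obese libraries for Fos, Egr1, Atf3, Fosb and Ier2. It lies below that range for Junb and above it for Jun, Zfp36, Dusp1 and Nr4a1.

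Counts of 2 genes in 1 library can be divided directly, so counts relative to Junb do not depend on library scaling. They do depend on Junb itself, whose level was lowest in lean 1, so that the ratios there are raised. This ratio was chosen after the values were seen, is not corrected for length and is described without a test. Zfp36 had 10.4, 15.5 and 10.5 counts per 100 counts of Junb in obese 1, 3 and 4, against 34.0, 29.8 and 44.0 in lean 1, 2 and 3. Jun had 19.8, 26.7 and 22.9 in the obese tumors, against 56.6, 34.0 and 42.9 in the lean ones. On this scale lean 3 lay between the other lean libraries for Jun and was the highest for Zfp36. Egr1 had 12.1 to 14.2 counts per 100 of Junb in obese and 19.3 to 51.7 in lean tumors. Fos had 7.92 to 16.3 in obese and 18.4 to 63.1 in lean tumors, and Nr4a1 had 4.10 to 6.52 in obese and 9.40 to 13.9 in lean tumors. The obese libraries lay below all lean libraries for 5 of the 9 genes. Of all genes tested, 2.13% showed this pattern when divided by Junb, but Junb is itself high in lean 3 and low in lean 1, which sets part of that share, and nothing is read from the contrast. The ranges of Fosb, Atf3, Ier2 and Dusp1 overlapped between the groups. In CPM, by contrast, Fos and Egr1 overlapped and Dusp1 did not, so for these genes the separation depends on the division by Junb.

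**Figure D5:**
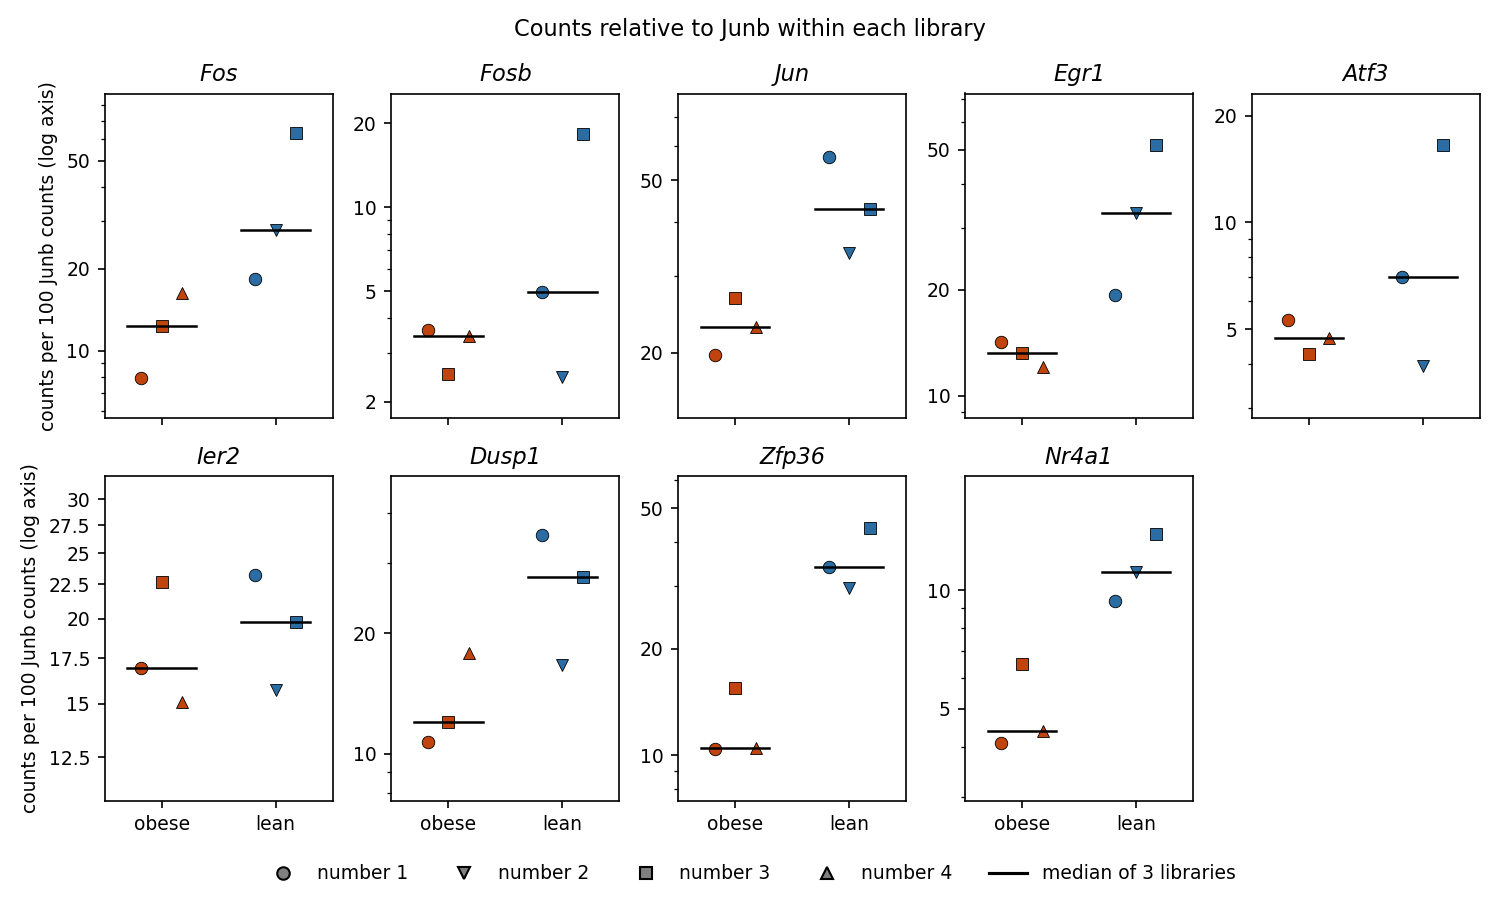
Counts of 9 genes per 100 counts of Junb in the same library, on a log axis whose range differs between panels, obese on the left and lean on the right; symbols mark the number in the sample title and bars the median of 3 libraries. Fos, Jun, Egr1, Zfp36 and Nr4a1 show no overlap, and for Jun the highest library is lean 1 rather than lean 3.

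Among 9637 other genes that averaged 10 CPM or more, the profile closest to the average of the panel was that of ENSMUSG00000053113.3, with a root mean square difference of 0.30 in centred log2 CPM over the 6 libraries. It had 83.0, 93.0 and 87.4 CPM in obese 1, 3 and 4, against 152, 185 and 316 CPM in lean 1, 2 and 3. The next closest, ENSMUSG00000003541.6, also differed by 0.30, with 104, 73.0 and 133 CPM in obese 1, 3 and 4, against 131, 238 and 352 CPM in lean 1, 2 and 3. Within the panel the same measure ran from 0.28 for Nr4a1 to 0.61 for Fosb. These genes were picked by their likeness to a profile that is highest in lean 3. Over the other 5 libraries they ranked only 913th and 999th in likeness among the 9637, with a root mean square difference of 0.22 each. The files do not pair their IDs with names.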

How the data were processed

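The authors deposited raw counts per gene for 6 libraries. Per the labels' protocols, total RNA was depleted of ribosomal RNA, so unspliced RNA can be counted too. The reads were handled with CASAVA, STAR and Subread on GRCm38, per the submitters' processing notes; how strand was treated, and which versions and settings were used, is not given in the sources used here. Titles starting with OB were taken as obese and the remaining titles, starting with ND, as lean, from the design text. Columns were matched by title, and 0 were left unmapped.

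The analysis used edgeR 4.0.16 under R 4.3.3, with its default expression filter (minimum count 10, minimum total 15), TMM factors, and the two-sided quasi-likelihood F test on 14348 genes. The SE was taken as the absolute log2 fold change over the root of F, and log2 CPM had a prior count of 2. The test was checked on simulated counts that had the same dispersion for every gene and no library that stood apart. That check therefore does not cover genes as variable as this panel.

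The 10 genes, and the lists, were chosen with earlier results of these data known. The rule was to name all 10 genes, and up to 2 IDs by likeness. Positions are from RefSeq (GRCm38.p6), matched by symbol for 10 of 10 genes; no other RefSeq gene span overlaps theirs. Of its 49997 rows, 0 carry an Ensembl ID, so lists of related pathway genes and of cell type markers, fixed by symbol, were not used. Sequences were not used here.

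Alternatives were limma-voom (limma 3.58.1), DESeq2 1.42.0, scaling by RLE factors or by totals alone, a filter on 1 CPM in at least 3 libraries or none, a block for the replicate number, and the omission of each library. Robust dispersions and voom with sample weights were added after seeing the data.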

Additional observations from a re-analysis of the deposited data

How the results depend on the processing

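All 10 genes kept a lower fitted level in obese hosts under each of the 15 alternatives, and 0 were called higher in any. Of all genes, 43.7% (total counts only) to 49.7% (without obese 4) had a lower fitted level. The alternatives share most of their libraries and so are not independent. Without lean 3, Fosb, Atf3, Ier2 and Junb were close to no difference (log2 fold changes of -0.11 to -0.02). Leaving out 1 library gave 3 to 9 called genes of the 10 and 1179 to 3066 over the whole table. The panel count was 3 without obese 1 (Jun, Zfp36 and Nr4a1; 1461 over the table), 3 without lean 3 (1541) and 9 without lean 1, where Fosb, Junb and Atf3 were added (2624). It was 4 without lean 2 (1179) and 6 without obese 4 (1956). With robust dispersions 2 genes were called (Jun and Zfp36; 3006 over the table), and Nr4a1 missed the threshold (adjusted p = 0.0544). DESeq2 called 4 genes (Jun, Egr1, Zfp36 and Nr4a1), against 21.6% of all genes, and gave no adjusted p for Fosb. In limma-voom 4 were called (Jun, Dusp1, Zfp36 and Nr4a1), against 21.0% of all genes. Log2 fold changes ranged most widely for Fosb, from -2.53 to -0.08, and least for Jun, from -1.46 to -0.92. Total counts alone moved the median of all genes to 0.07 and left the same 6 genes called, against 20.7% of all genes. Apart from the samples left out, the cause of these differences was not tested.

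Titles of both groups share the numbers 1 and 3. Deviations of the like-numbered libraries correlated at 0.090 and 0.074, and those of unlike numbers at -0.131 to 0.066, so whether a number pairs libraries cannot be told. With the replicate block, 8 of the 10 genes were called, against 2087 over the table (14.5% of genes tested). Fosb (edgeR adjusted p = 0.0200) and Atf3 (edgeR adjusted p = 0.0260) were among them. Obese 4 and lean 2 have no like-numbered library, so the group difference in this fit comes from numbers 1 and 3 alone. It thus leans more on lean 3 than the main fit does, although it is counted among the 15 alternatives. The counts of pathway genes by list were not run, because the lists are by symbol. The lowest count of any of the 10 genes was 48; whether depth limits their calls was not tested.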
